A study of Mus musculus with 10 samples.

Results

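A set of 10 aldehyde dehydrogenase genes was followed in the gastrocnemius muscle of smoke-exposed mice with and without the aryl hydrocarbon receptor (AHR) in their myofibres. The members were named by symbol (*Aldh2*, *Aldh1a1*, *Aldh1b1*, *Aldh1l1*, *Aldh3a2*, *Aldh4a1*, *Aldh5a1*, *Aldh6a1*, *Aldh7a1* and *Aldh9a1*), and all 10 were found among the 49315 genes of the count table. RNA sequencing was performed on 10 male mice of C57BL6J background, 5 AHRfl/fl and 5 AHRmKO. AHRfl/fl mice carry the loxP-flanked *Ahr* alleles and are described as littermates without Cre. AHRmKO mice carry the same alleles and the HSA-MCM transgene, in which the human ACTA1 promoter drives a tamoxifen-inducible MerCreMer recombinase in myofibres, so that the other cells of the muscle keep the receptor. All 10 mice were exposed to cigarette smoke for 16 weeks, on 5 days per week in 2 daily sessions of 1 h, and smoke began 4 weeks after tamoxifen according to the labels. The labels put the harvest at 72 h after the last exposure. The study's own text also gives a range that starts earlier and, for the time from tamoxifen to smoke, a shorter interval. Whether the AHRfl/fl mice also received tamoxifen is not clear from the sources used here, and the ages of the single mice are not given. No air-exposed mice were analysed here, so the comparison concerns the genotype within smoke exposure and not smoke itself.

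Aldehyde dehydrogenases oxidize aldehydes to the matching acids with NAD+ or NADP+. Some members clear reactive aldehydes that come from cigarette smoke, ethanol or oxidized lipids, and others carry out single steps in the breakdown of amino acids or in the making of carnitine, retinoic acid and folate cofactors. The AHR is a ligand-activated transcription factor that pairs with ARNT and binds the core motif GCGTG, and NRF2, a regulator of oxidant defence, binds the core motif TGACNNNGC. Skeletal muscle mixes slow, oxidative fibres, which are rich in mitochondria, with fast fibres, and the gastrocnemius is mostly fast.

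Promoter sequence is shown for the members with a match to either core motif, because the genotypes differ in a factor that reads the first of them. The promoters were those of RefSeq on GRCm38.p6, from 250 bases before to 50 bases after each start site, and 8 of the 10 members matched, with 10 promoters in all. *Aldh2* and *Aldh7a1* were not matched. Both strands were searched. GCGTG was found in 4 of the 10 promoters (40%), those of 4 members, and in 32.4% of all 32851 promoters of this length. TGACNNNGC was found in 1 of the 10 (10%) and in 12.4% of all. No match of one motif overlapped a match of the other. Each line below is written 5′ to 3′ on the strand of the gene, with the match in capitals, and CACGC is GCGTG read on the opposite strand.
*Aldh9a1*, AHR core, chr1:167349943-167349963, plus strand: cgtcctctCACGCcacacccc
*Aldh9a1*, AHR core, chr1:167349971-167349991, plus strand: cacgaggcCACGCccctccca
*Aldh9a1*, NRF2 core, chr1:167349896-167349920, plus strand: aattatgcTGACTAGGCccaagcta
*Aldh4a1*, AHR core, chr4:139622701-139622721, plus strand: ctactgagCACGCgctctgtg
*Aldh4a1*, AHR core, chr4:139622831-139622851, plus strand: gtgaggctCACGCcctctctc
*Aldh3a2*, AHR core, chr11:61267291-61267311, minus strand: gcgtcttcGCGTGccaaaaat
*Aldh6a1*, AHR core, chr12:84451003-84451023, minus strand: tgttctggGCGTGgcttaacg
*Aldh9a1* was the member that held both motifs. Its AHR cores began 40 and 12 bases before the start site, those of *Aldh4a1* 185 and 55 bases before it, and that of *Aldh3a2* 117 bases before it. The match of *Aldh6a1* lay in the first of its 2 promoters, 9 bases after the first transcribed base. The promoters of *Aldh1a1* (2 start sites), *Aldh1b1*, *Aldh1l1* and *Aldh5a1* held neither run of letters within this window. A match is a run of letters and not evidence of binding, since no binding was measured in these mice.

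The libraries held from 30393035 to 36500548 counts in AHRfl/fl and from 35038167 to 37954388 in AHRmKO mice. The targeted gene *Ahr* was at 2.02 ± 0.681 CPM (TMM-normalized counts scaled to a library of fixed size, mean ± SD, n = 5) in AHRfl/fl and 1.58 ± 0.443 CPM (n = 5) in AHRmKO muscle, a log2 fold change of -0.35 (edgeR's quasi-likelihood test, Benjamini-Hochberg adjusted p = 0.844). It was -0.13 without AHRfl/fl mouse 11 and -0.21 without AHRmKO mouse 34. The counts sum all exons of *Ahr* and come from all cells of the muscle, so they are a weak check of a deletion of 1 exon in myofibres. *Esr1*, the oestrogen receptor whose ligand-binding part is built into MerCreMer, was between 15.9 and 18.98 CPM in AHRfl/fl and between 268 and 678 CPM in AHRmKO mice and did not overlap. The counts are per gene, so how much of them came from the transgene was not tested. The Y-linked *Ddx3y* had between 1852 and 2723 counts in the 10 libraries, and *Xist* between 0 and 75 with at least 10 in 5 of them, whose part in the members' values was not tested. Of the 3 liver markers, *Apoa1* and *Ttr* had at most 1 count in every mouse and *Alb* had between 1 and 10 counts, whereas the muscle markers *Acta1*, *Ckm*, *Des* and *Mb* summed to between 50798 and 62505 CPM. The 8 slow-fibre markers summed to between 94.8 and 2019 CPM in AHRfl/fl and between 252 and 2395 CPM in AHRmKO mice.

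None of the 10 aldehyde dehydrogenase genes differed between AHRmKO and AHRfl/fl muscle beyond the spread of the mice. All 10 passed the filter on low counts, and 0 of 10 had an adjusted p under 0.05 by edgeR's quasi-likelihood test. Of the 14714 genes tested, 0.0068% were past this threshold, higher in AHRmKO for that percentage and lower for 0.0%. That percentage is 1 gene, *Esr1* (log2 fold change 4.44, edgeR adjusted p = 0.000433). DESeq2 and limma-voom also called 0 members, and 0 of 10 had an unadjusted p under 0.05, where 6.61% of all genes did. The ranges of the genotypes overlapped for all 10 members, and 1.4% of all genes had ranges that did not. The log2 fold change was above 0 for 9 members and below 0 for *Aldh1a1*, where 51.5% of all genes were above 0, and the median was 0.08 over the members and 0.01 over all genes. Summed over the members, the level was 491 ± 31.8 CPM (SD, n = 5, from 449 to 521) in AHRfl/fl and 506 ± 39.5 CPM (n = 5, from 451 to 556) in AHRmKO mice. In bulk muscle, fewer cells of a type and less RNA per cell cannot be told apart.

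**Figure D1:**
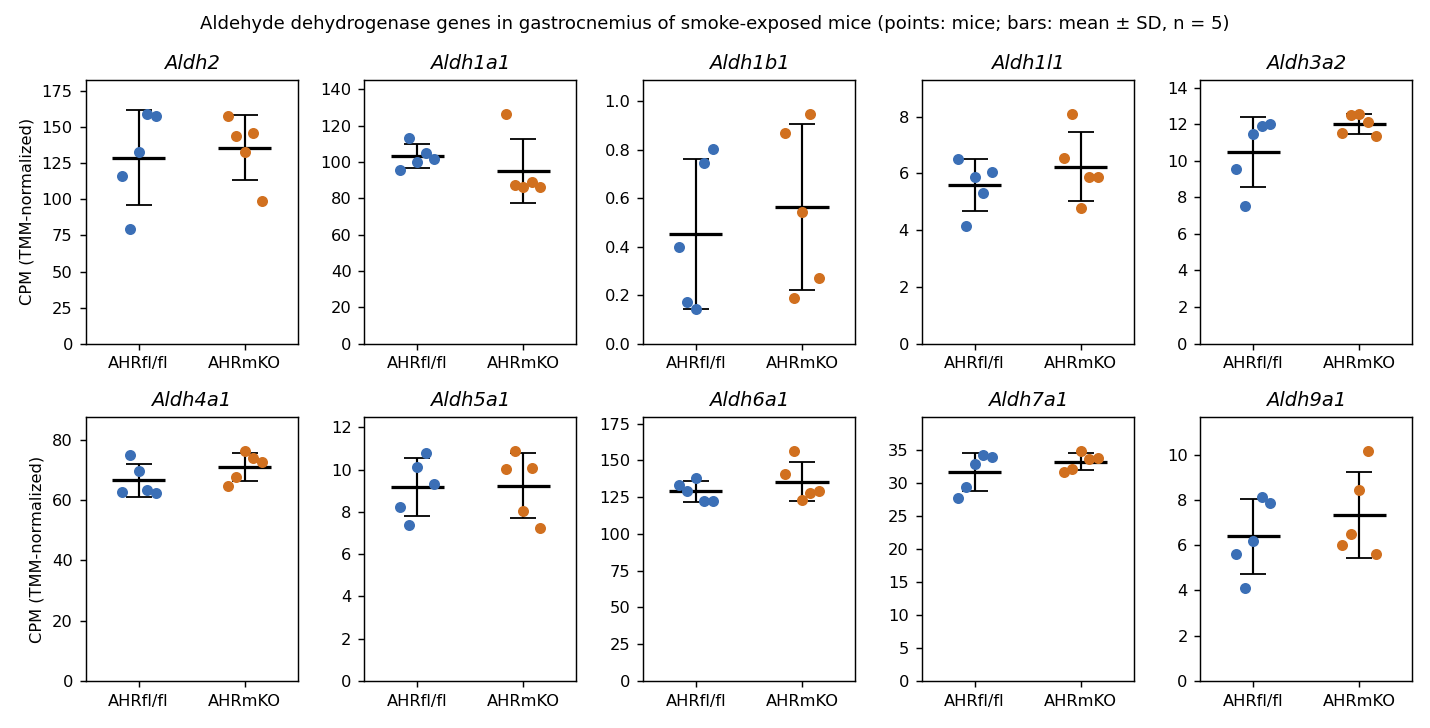
CPM (TMM-normalized, linear axes from 0) of each of the 10 genes in each mouse, with AHRfl/fl mice in blue and AHRmKO mice in orange, and bars for the mean ± SD of 5 mice. The genotypes overlap in every panel, and in *Aldh1a1* 4 AHRmKO mice lie below all AHRfl/fl mice while the fifth lies above them.

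*Aldh2* (ENSMUSG00000029455, minus strand, chr5:121566027-121593824 of GRCm38) encodes the mitochondrial enzyme that oxidizes acetaldehyde and the lipid aldehyde 4-hydroxynonenal. In AHRfl/fl mice 11, 12, 13, 15 and 33 it was at 116, 79.6, 133, 159 and 158 CPM, and in AHRmKO mice 8, 9, 19, 22 and 34 at 158, 144, 133, 146 and 98.8 CPM. The lowest value came from an AHRfl/fl mouse and the next lowest from an AHRmKO mouse, and the upper ends of the genotypes met. The means were 129 ± 32.97 and 136 ± 22.5 CPM (SD, n = 5 each), and the log2 fold change was 0.07 ± 0.19 (SE, 95% interval -0.34 to 0.48, edgeR adjusted p = 0.967). As a percentage of the AHRfl/fl level the interval runs from -20.7% to 39.8%, and the exact two-sided permutation test over the 252 assignments of the mice gave p = 0.659. With 1 mouse left out, the log2 fold change ranged from -0.06 without AHRfl/fl mouse 12, the 1 mouse whose omission changed the direction, to 0.17 without AHRmKO mouse 34.

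*Aldh1b1* (ENSMUSG00000035561, plus strand, chr4:45799022-45804604) encodes a second mitochondrial acetaldehyde dehydrogenase, close in sequence to ALDH2, which also accepts retinal. It was the scarcest member, with between 5 and 36 counts per mouse. The AHRfl/fl mice, in the same order, were at 0.398, 0.173, 0.141, 0.744 and 0.804 CPM, and the AHRmKO mice at 0.867, 0.190, 0.542, 0.947 and 0.269 CPM. Each genotype held mice near 0.2 CPM and mice near 0.8 CPM, and the highest mouse had 6.71 times the level of the lowest. The means were 0.452 ± 0.311 and 0.563 ± 0.341 CPM (SD, n = 5 each), with a log2 fold change of 0.33 ± 0.54 (SE, 95% interval -0.84 to 1.5, edgeR adjusted p = 0.947, exact permutation p = 0.579). The interval includes a level 2-fold higher in AHRmKO muscle. Adding a slow-fibre score to the edgeR model turned the log2 fold change to -0.06 and brought its standard error to 0.31 at the same counts. With 1 mouse left out, the log2 fold change ranged from 0.06 without AHRmKO mouse 22 to 0.63 without AHRfl/fl mouse 33.

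*Aldh3a2* (ENSMUSG00000010025, minus strand, chr11:61223417-61267464) encodes the fatty aldehyde dehydrogenase of the endoplasmic reticulum, which oxidizes long-chain aldehydes. The AHRfl/fl mice were at 9.58, 7.56, 11.5, 11.9 and 11.99 CPM, and the AHRmKO mice at 11.5, 12.5, 12.6, 12.1 and 11.4 CPM. The AHRmKO mice lay close together, 3 of them above every AHRfl/fl mouse, while AHRfl/fl mice 11 and 12 lay apart at the low end. The means were 10.5 ± 1.91 and 12.01 ± 0.555 CPM (SD, n = 5 each). The log2 fold change of 0.19 ± 0.12 (SE, 95% interval -0.06 to 0.45) had the smallest p of the 10 members, 0.119 before and 0.815 after adjustment by edgeR's quasi-likelihood test, and the exact permutation test gave p = 0.111. Without AHRfl/fl mouse 12, the log2 fold change was 0.10.

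*Aldh1a1* (ENSMUSG00000053279, plus strand, chr19:20492715-20643465) encodes the cytosolic retinal dehydrogenase, which makes retinoic acid and also oxidizes lipid aldehydes. The AHRfl/fl mice were at 95.6, 113, 99.7, 105 and 102 CPM, and the AHRmKO mice at 126, 87.5, 86.2, 89.0 and 86.4 CPM. Of the 5 AHRmKO mice, 4 lay between 86.2 and 89.0 CPM and below every AHRfl/fl mouse, whereas AHRmKO mouse 8 was the highest of all 10. The means were 103 ± 6.61 and 95.1 ± 17.5 CPM (SD, n = 5 each), and the log2 fold change was -0.11 ± 0.10 (SE, 95% interval -0.34 to 0.11, edgeR adjusted p = 0.881, exact permutation p = 0.294). Of the 10 fits that each omit 1 mouse, the one without AHRmKO mouse 8 moved the log2 fold change most, to -0.24, and the adjusted p by edgeR's quasi-likelihood test was then 0.739. Since this mouse is the one that runs against the others of its genotype, the value without it is a description. Mouse 8 also had the highest slow-fibre score of the 10 mice and the third highest adipocyte score. Their part in its *Aldh1a1* level was not tested. *Aldh1a7*, a close copy of *Aldh1a1*, had between 3 and 28 counts, and only uniquely mapped reads were counted.

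4 members act in the breakdown of amino acids in mitochondria. *Aldh6a1* (ENSMUSG00000021238, minus strand, chr12:84430717-84451004), the methylmalonate semialdehyde dehydrogenase of valine breakdown, was at 134, 129, 138, 122 and 122 CPM in AHRfl/fl and at 141, 156, 123, 128 and 129 CPM in AHRmKO mice. The top 2 mice were AHRmKO mice, and the other 3 AHRmKO mice lay within the AHRfl/fl range. The means were 129 ± 6.98 and 135 ± 13.3 CPM (SD, n = 5 each), and the log2 fold change was 0.07 ± 0.07 (SE, 95% interval -0.09 to 0.23, edgeR adjusted p = 0.901, exact permutation p = 0.397). It was 0.02 without AHRmKO mouse 9, the highest, and 0.11 without AHRmKO mouse 19.

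*Aldh4a1* (ENSMUSG00000028737, plus strand, chr4:139622866-139649690) oxidizes glutamate semialdehyde, the last step of proline breakdown. It was at 62.6, 74.8, 69.7, 63.2 and 62.5 CPM in AHRfl/fl and at 64.6, 67.8, 76.1, 74.0 and 72.7 CPM in AHRmKO mice. The lowest 3 mice were AHRfl/fl, but mouse 12 of that genotype was the second highest of all. The means were 66.6 ± 5.51 and 71.1 ± 4.74 CPM (SD, n = 5 each), with a log2 fold change of 0.09 ± 0.07 (SE, 95% interval -0.06 to 0.25, edgeR adjusted p = 0.846, exact permutation p = 0.198). As a percentage the interval runs from -4.02% to 18.7%. *Gm21969*, annotated over the same span and strand, had at most 7 counts.

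*Aldh7a1* (ENSMUSG00000053644, minus strand, chr18:56509687-56572951) oxidizes aminoadipic semialdehyde in lysine breakdown. It was at 27.6, 29.4, 32.8, 34.2 and 33.9 CPM in AHRfl/fl and at 31.6, 32.0, 34.7, 33.6 and 33.8 CPM in AHRmKO mice. AHRfl/fl mice 11 and 12 were the lowest, and the other 8 mice of both genotypes lay between 31.6 and 34.7 CPM. The means were 31.6 ± 2.91 and 33.1 ± 1.29 CPM (SD, n = 5 each), with a log2 fold change of 0.07 ± 0.07 (SE, 95% interval -0.08 to 0.22, edgeR adjusted p = 0.894, exact permutation p = 0.333). It was 0.02 without AHRfl/fl mouse 11 and 0.04 without AHRfl/fl mouse 12. *Phax*, which overlaps it on the opposite strand with up to 757 counts, *Bbof1*, which so overlaps *Aldh6a1* with up to 101, and *Gm15756*, which so overlaps *Aldh1l1* with up to 170, cannot be told apart from their partners where exons overlap, because the strand setting of the counting is not given.

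*Aldh5a1* (ENSMUSG00000035936, minus strand, chr13:24907579-24937661), the succinic semialdehyde dehydrogenase that completes the breakdown of the transmitter GABA, was at 8.24, 7.38, 10.1, 10.8 and 9.33 CPM in AHRfl/fl and at 10.01, 10.9, 8.02, 10.1 and 7.24 CPM in AHRmKO mice. AHRmKO mice held both the highest and the lowest value. The means were 9.17 ± 1.37 and 9.24 ± 1.53 CPM (SD, n = 5 each), and the log2 fold change was 0.01 ± 0.13 (SE, 95% interval -0.27 to 0.30, edgeR adjusted p = 0.994, exact permutation p = 0.952), with a sign that changed under 9 of the alternatives tried.

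*Aldh9a1* (ENSMUSG00000026687, plus strand, chr1:167349991-167368532) oxidizes trimethylaminobutyraldehyde, a step in the making of carnitine, which carries fatty acids into mitochondria. It was at 5.63, 4.10, 6.21, 8.15 and 7.88 CPM in AHRfl/fl and at 6.01, 6.48, 8.45, 10.1 and 5.62 CPM in AHRmKO mice. AHRmKO mice 19 and 22 were the highest and AHRfl/fl mouse 12 the lowest. The means were 6.39 ± 1.67 and 7.34 ± 1.91 CPM (SD, n = 5 each), with a log2 fold change of 0.20 ± 0.21 (SE, 95% interval -0.25 to 0.65, edgeR adjusted p = 0.896, exact permutation p = 0.397). This was the member with both promoter motifs, and its log2 fold change was 0.05 without AHRmKO mouse 22, 0.08 without AHRfl/fl mouse 12 and 0.30 without AHRfl/fl mouse 15.

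*Aldh1l1* (ENSMUSG00000030088, plus strand, chr6:90486427-90600203), the cytosolic 10-formyltetrahydrofolate dehydrogenase that returns the folate cofactor to its free form, was at 6.51, 4.15, 5.87, 5.32 and 6.06 CPM in AHRfl/fl and at 6.54, 8.08, 4.79, 5.86 and 5.86 CPM in AHRmKO mice. AHRmKO mouse 9 stood above the other 9 mice, which lay between 4.15 and 6.54 CPM. The means were 5.58 ± 0.906 and 6.23 ± 1.21 CPM (SD, n = 5 each), with a log2 fold change of 0.16 ± 0.15 (SE, 95% interval -0.17 to 0.49, edgeR adjusted p = 0.887, exact permutation p = 0.405). It was 0.05 without mouse 9, 0.07 without AHRfl/fl mouse 12 and 0.24 without AHRmKO mouse 19.

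**Figure D2:**
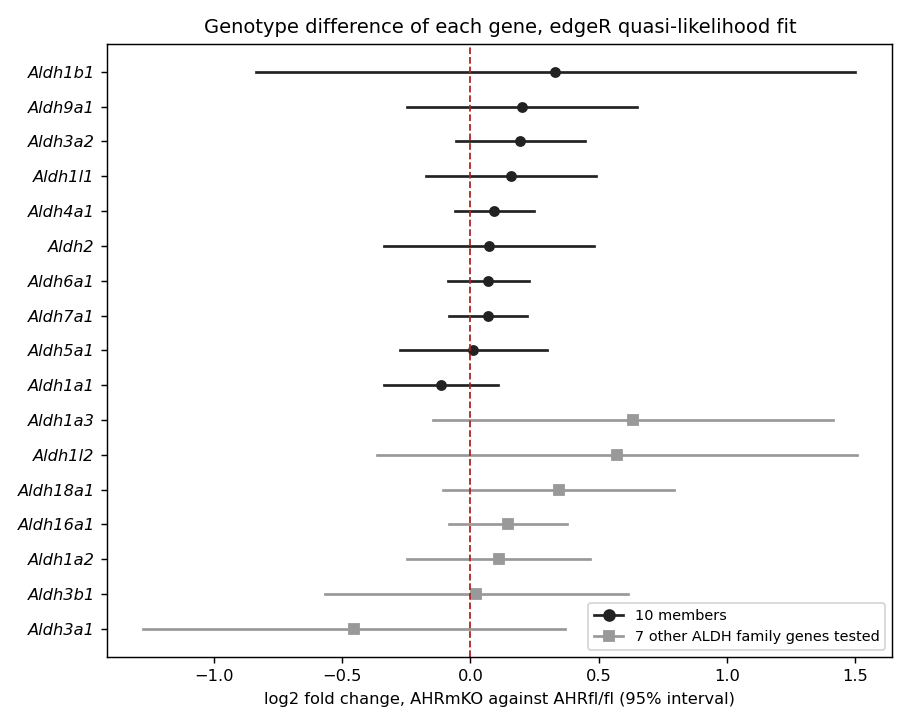
Log2 fold change of AHRmKO against AHRfl/fl muscle with its 95% interval from edgeR, for the 10 members (black circles) and the 7 other tested genes of the family (grey squares). All 17 intervals include 0, and they are narrow for *Aldh4a1*, *Aldh6a1* and *Aldh7a1* and wide for the scarce *Aldh1b1*.

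Per exon length, the members spanned more than 2 orders of magnitude in level. As FPKM, taken from the normalized counts and the exon length of each gene, the mean of the 10 mice was 25.8 ± 5.24 (SD, n = 10) for *Aldh2*, 22.9 ± 1.83 for *Aldh6a1*, 20.1 ± 2.66 for *Aldh1a1*, 14.0 ± 1.10 for *Aldh4a1* and 6.24 ± 0.440 for *Aldh7a1*. These 5 genes are the mitochondrial acetaldehyde enzyme, the cytosolic retinal dehydrogenase and 3 amino acid enzymes. A second group followed at 2.03 ± 0.522 for *Aldh9a1*, 2.00 ± 0.276 for *Aldh3a2*, 1.63 ± 0.243 for *Aldh5a1* and 1.31 ± 0.236 for *Aldh1l1*, and *Aldh1b1* was at 0.221 ± 0.136. The ranges of neighbours in this order overlapped among *Aldh2*, *Aldh6a1* and *Aldh1a1*, and again from *Aldh9a1* to *Aldh1l1*. They did not overlap at the steps from *Aldh1a1* to *Aldh4a1* (1.43-fold), *Aldh4a1* to *Aldh7a1* (2.25-fold), *Aldh7a1* to *Aldh9a1* (3.08-fold) and *Aldh1l1* to *Aldh1b1* (5.92-fold), where all 10 mice had the same order. Of 14686 tested genes with a length, 91.3% had a lower FPKM than *Aldh2* and 12.1% a lower one than *Aldh1b1*.

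**Figure D3:**
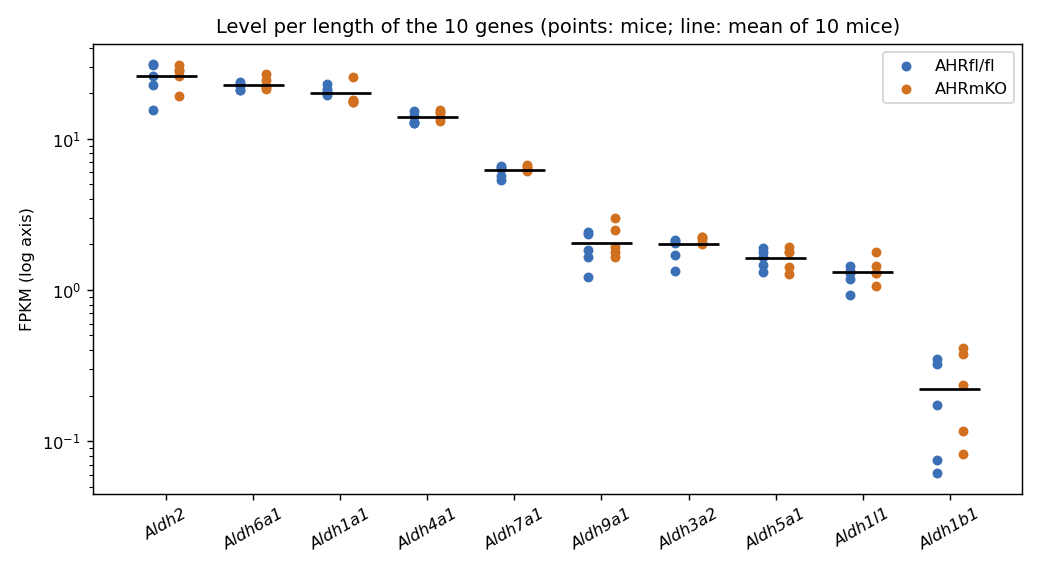
FPKM of the 10 members in each mouse on a log axis, ordered by their mean, with AHRfl/fl mice in blue, AHRmKO mice in orange and a line at the mean of 10 mice. *Aldh2*, *Aldh6a1* and *Aldh1a1* lie between 15.5 and 31.1 and *Aldh1b1* between 0.0614 and 0.412.

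The members differed in how much they varied between mice. The SD of log2 CPM over the 10 mice was 0.11 for *Aldh4a1*, *Aldh6a1* and *Aldh7a1*, below the median of 0.14 over the 8800 tested genes with a mean of at least 5 CPM. It was 0.33 for *Aldh2* and 0.37 for *Aldh9a1*, above 91.1% and 93.6% of those genes. The scarce *Aldh1b1* had the largest SD of the members, 0.91, at 5 to 36 counts per mouse and a level under 5 CPM. AHRfl/fl mouse 12 was the lowest of the 10 mice in 4 members (*Aldh2*, *Aldh1l1*, *Aldh3a2* and *Aldh9a1*) and below the mean in 8, and AHRfl/fl mouse 11 was also below the mean in 8. AHRmKO mice 9 and 19 were each the highest in 3 members.

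*Aldh1b1* varied with the slow-fibre markers of the muscle piece. A slow-fibre score was taken as the mean log2 CPM of *Myh7*, *Myl2*, *Tnnt1*, *Tnni1*, *Tnnc1*, *Atp2a2*, *Myl3* and *Tpm3*. It was 5.13 ± 2.25 in AHRfl/fl and 6.05 ± 1.74 in AHRmKO mice (SD, n = 5 each, exact permutation p = 0.468), with AHRfl/fl mouse 12 lowest at 2.42 and AHRmKO mouse 8 highest at 7.97. *Aldh1b1* followed the score over the 10 mice (Pearson's r = 0.94, permutation p = 0.00037, Spearman's rho = 0.89, permutation p = 0.00115), and its adjusted permutation p was 0.0037 for r and 0.0115 for rho over the 10 relations with this score, and 0.0074 and 0.023 over the 20 relations computed with it and the adipocyte score. Leaving out the 2 mice at the ends of the score, AHRfl/fl 12 and AHRmKO 8, gave r = 0.93, and removal of the genotype means gave 0.94, so the relation held without the end mice and within genotype.

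For *Aldh2*, r with the slow-fibre score was 0.77 (permutation p = 0.0056, adjusted 0.028 over the 10 relations and 0.056 over the 20) and rho was 0.77 (permutation p = 0.0126, adjusted 0.0628 and 0.0837), and r was 0.58 without the 2 end mice. For *Aldh9a1* r was 0.74 (permutation p = 0.0146, adjusted 0.0487 over the 10 and 0.0585 over the 20), 0.83 without the end mice, and rho was 0.52 (permutation p = 0.133, adjusted 0.444 over either number). Both passed the adjusted threshold by r over the 10 relations with this score, and neither passed over the 20, which include the relations added after the data were seen, or by rho. Removal of the genotype means left r at 0.77 for *Aldh2* and 0.72 for *Aldh9a1*. The share of all tested genes that followed the score as strongly is not given here. The relations with it, that of *Aldh1b1* included, are therefore a description of the members. The other 7 members had r between -0.37 for *Aldh6a1* and 0.62 for *Aldh3a2*. Without the end mice r went from 0.62 to 0.36 for *Aldh3a2*, from 0.46 to 0.20 for *Aldh5a1*, from -0.35 to -0.07 for *Aldh4a1*, from -0.37 to -0.78 for *Aldh6a1*, from 0.13 to -0.55 for *Aldh1l1*, from 0.18 to 0.32 for *Aldh1a1* and from 0.54 to 0.53 for *Aldh7a1*. With the score as a covariate of the edgeR fit, the log2 fold change was -0.01 for *Aldh2*, -0.06 for *Aldh1b1* and 0.10 for *Aldh9a1*.

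**Figure D4:**
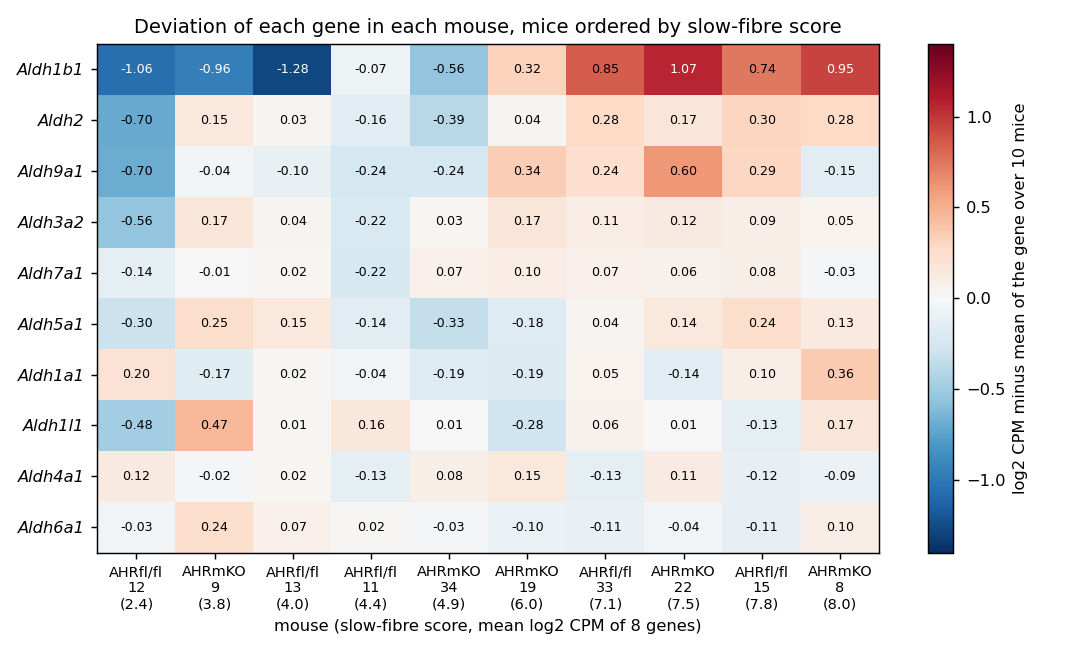
Log2 CPM of each member in each mouse minus the mean of the gene over 10 mice, with mice ordered from left to right by slow-fibre score (in brackets) and genes from top to bottom by their correlation with it. *Aldh1b1* passes from blue to red along the row, AHRfl/fl mouse 12 at the low end is blue for *Aldh2*, *Aldh9a1*, *Aldh3a2* and *Aldh1l1*, and AHRmKO mouse 8 at the high end is the reddest for *Aldh1a1*.

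An adipocyte score, the mean log2 CPM of the tested adipocyte markers, was added after the data were seen, because these markers varied between mice and fat cells express several members. Of the 6 markers, *Lep* did not pass the filter, and the 6 summed to between 9.83 and 61.6 CPM in AHRfl/fl and between 7.36 and 59.7 CPM in AHRmKO mice. The score was 1.18 ± 1.03 and 1.38 ± 1.25 (SD, n = 5 each, exact permutation p = 0.794). *Aldh6a1* had r = 0.75 with it (permutation p = 0.0086, adjusted 0.0573 over the 20 relations, rho = 0.65, permutation p = 0.0495, adjusted 0.198) and *Aldh7a1* had r = -0.73 (permutation p = 0.0128, adjusted 0.0585, rho = -0.78, permutation p = 0.0112, adjusted 0.0837). Leaving out the 2 mice farthest from its median, AHRfl/fl 11 and AHRmKO 9, gave r = 0.69 and -0.69. Neither relation passed the adjusted threshold. The other 8 members had r between -0.31 for *Aldh9a1* and 0.57 for *Aldh1l1*. By rank, *Aldh1l1* had rho = 0.70 (permutation p = 0.031, adjusted 0.155 over the 20 relations). Without the same 2 mice r went from 0.57 to 0.18 for *Aldh1l1*, from 0.19 to 0.68 for *Aldh1a1*, from -0.14 to 0.14 for *Aldh1b1* and from -0.28 to -0.04 for *Aldh4a1*, and for the remaining 4 it was 0.04 for *Aldh2*, -0.34 for *Aldh3a2*, 0.26 for *Aldh5a1* and -0.25 for *Aldh9a1*.

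**Figure D5:**
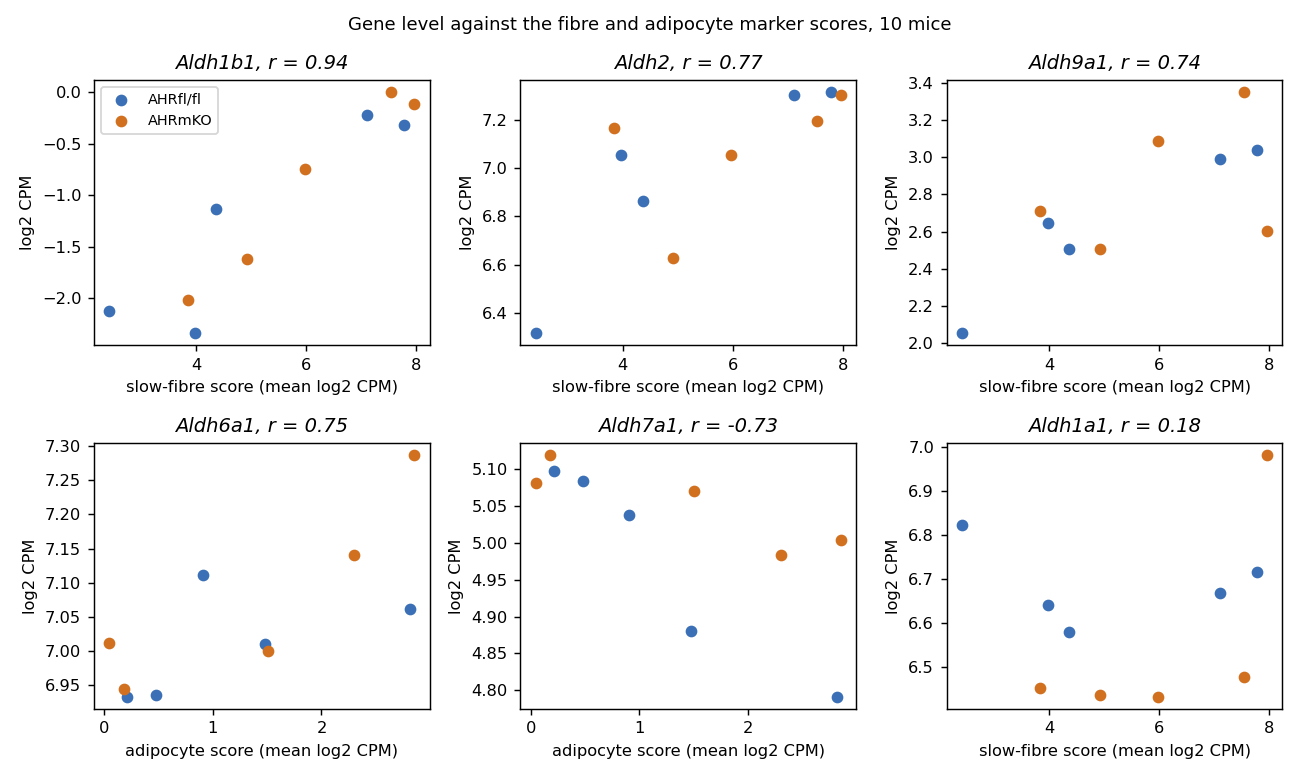
Log2 CPM of 5 members with the largest correlations and of *Aldh1a1* against the slow-fibre or adipocyte score of each mouse, AHRfl/fl in blue and AHRmKO in orange. *Aldh1b1* lies along a line over both genotypes (r = 0.94), while in *Aldh1a1* (r = 0.18) AHRmKO mouse 8 lies at the upper right and the other AHRmKO mice lie at the bottom.

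Among the 45 pairs of members, 29 had a positive correlation over the 10 mice, 9 had a permutation p under 0.05 for r and 2 passed the adjusted threshold. The same counts over pairs of all genes are not given here, so the values describe the members without a comparison with other genes. *Aldh3a2* and *Aldh9a1* had r = 0.79 (permutation p = 0.00157, adjusted 0.0461, rho = 0.87, adjusted permutation p = 0.0981). Without AHRfl/fl mice 11 and 12, which lay farthest from the median of *Aldh3a2*, r was 0.60. *Aldh2* and *Aldh5a1* had r = 0.83 (permutation p = 0.00205, adjusted 0.0461, rho = 0.64, adjusted permutation p = 0.298). Without AHRfl/fl mouse 12 and AHRmKO mouse 34, which lay farthest from the median of *Aldh2*, r was 0.64. Neither pair passed by rank, and AHRfl/fl mouse 12 was low in all 4 of these genes.

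The genes whose pattern over the 10 mice was most like that of a member, by Pearson's r among the 8800 genes with at least 5 CPM, are given as a description. These r are the highest among many genes over only 10 mice, and how high they would be by chance was not tested. *Aldh2* was closest to *Slc41a1* (r = 0.98), *Slc25a34* and *Nceh1* (both 0.97). *Aldh1b1* was closest to *Pi16* (0.97) and to the slow troponin genes *Tnnc1* (0.96) and *Tnni1* (0.95), which are also in the slow-fibre score. *Aldh3a2* was closest to *Taco1* (0.98) and *Aldh9a1* to *Tmem129* (0.97), *Adamtsl4* (0.96) and *Ctsb* (0.96). The closest gene was *Acot11* for *Aldh5a1* (0.97), *Cog6* for *Aldh4a1* (0.95), *Anapc1* for *Aldh1l1* (0.94), *Phactr2* for *Aldh6a1* (0.93), *Flot2* for *Aldh7a1* (0.92) and *Ano6* for *Aldh1a1* (0.91).

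The other genes of the family were mostly scarce. Of 11 listed, 7 were tested, 6 had a log2 fold change above 0 and 0 were called, and 0 had an unadjusted p under 0.05. *Aldh1a3*, another retinal dehydrogenase, had the smallest p of them, with 0.680 ± 0.241 CPM in AHRfl/fl and 1.06 ± 0.518 CPM in AHRmKO mice (SD, n = 5 each) and a log2 fold change of 0.63 (edgeR adjusted p = 0.809, exact permutation p = 0.206). *Aldh3a1*, a member of the classical AHR-inducible battery in liver, had between 5 and 23 counts per mouse and a log2 fold change of -0.45 (edgeR adjusted p = 0.868). *Aldh1a7*, *Aldh3b2*, *Aldh3b3* and *Aldh8a1* did not pass the filter on low counts.

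The genes that act beside the members were counted by pathway, and 0 of them were called in any list by edgeR's quasi-likelihood test. In valine, leucine and isoleucine breakdown, where *Aldh6a1* acts, all 18 listed genes were tested, 12 were above 0 and the median log2 fold change was 0.03. *Mccc1*, of leucine breakdown, was at 36.7 ± 2.03 and 40.8 ± 2.65 CPM (SD, n = 5 each, log2 fold change 0.15, edgeR p = 0.0361, adjusted 0.718, exact permutation p = 0.0317). *Acadsb*, of isoleucine breakdown, was at 89.4 ± 3.85 and 98.9 ± 7.80 CPM (n = 5 each, log2 fold change 0.15, edgeR p = 0.0458, adjusted 0.744, exact permutation p = 0.0556). Neither passed after adjustment.

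In the proline and GABA steps beside *Aldh4a1* and *Aldh5a1*, 7 of 9 listed genes were tested and the median log2 fold change was 0.02. *Prodh*, which starts proline breakdown upstream of *Aldh4a1*, was at 5.65 ± 0.981 CPM in AHRfl/fl and 7.66 ± 1.87 CPM in AHRmKO mice (SD, n = 5 each, log2 fold change 0.44, edgeR p = 0.0222, adjusted 0.668, exact permutation p = 0.0635). In the folate steps beside *Aldh1l1*, 9 of 10 were tested with a median of -0.03. *Mthfd2l*, a mitochondrial folate enzyme, was at 4.48 ± 0.531 and 3.43 ± 0.543 CPM (n = 5 each, log2 fold change -0.39, edgeR p = 0.0145, adjusted 0.665, exact permutation p = 0.0317). *Shmt1*, the cytosolic serine hydroxymethyltransferase, was at 8.85 ± 0.546 and 10.3 ± 0.988 CPM (n = 5 each, log2 fold change 0.22, edgeR p = 0.0252, adjusted 0.691, exact permutation p = 0.0317).

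In the retinoid steps beside *Aldh1a1*, 10 of 13 were tested with a median log2 fold change of 0.13. *Rdh10*, which makes the retinal that *Aldh1a1* oxidizes, was at 2.47 ± 0.383 and 3.12 ± 0.395 CPM (SD, n = 5 each, log2 fold change 0.33, edgeR p = 0.0437, adjusted 0.738, exact permutation p = 0.0397), and the receptor gene *Rara* was at 10.1 ± 1.22 and 8.67 ± 0.632 CPM (n = 5 each, log2 fold change -0.22, edgeR p = 0.0454, adjusted 0.741, exact permutation p = 0.0556). In the lysine and carnitine steps beside *Aldh7a1* and *Aldh9a1*, 4 of 10 were tested, with *Dhtkd1* at the smallest p (log2 fold change 0.31, edgeR adjusted p = 0.858, 0.16 without AHRmKO mouse 9 and 0.49 without AHRmKO mouse 34), and *Bbox1*, the last enzyme of carnitine synthesis, had at most 2 counts. In the fatty aldehyde steps beside *Aldh3a2*, all 8 were tested, with *Hacl1* at the smallest p (log2 fold change 0.10, edgeR adjusted p = 0.887, 0.06 without AHRfl/fl mouse 33).

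Enzymes of other families that reduce or oxidize aldehydes were counted too, with 14 of 17 tested, 8 above 0, a median log2 fold change of 0.03 and *Rdh10* the 1 gene with an unadjusted p under 0.05. Of AHR and its classical targets, 6 of 8 were tested and 3 were above 0. *Cyp1a1*, the usual readout of AHR activity, was at 1.24 ± 0.180 CPM in AHRfl/fl and 1.60 ± 0.359 CPM in AHRmKO mice (SD, n = 5 each, log2 fold change 0.36, edgeR p = 0.0849, adjusted 0.792, exact permutation p = 0.0556), and the log2 fold change was 0.22 without AHRmKO mouse 9. Neither this gene nor *Ahr* itself differed beyond the spread of the mice at the time of sampling.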

How the data were processed

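RNA was measured by poly(A)-selected, paired-end sequencing of gastrocnemius from 10 mice. Trimming (Trimmomatic 0.36), alignment to GRCm38 (STAR 2.5.2b) and counting of unique exonic reads (featureCounts) were done by the authors, who deposited raw counts for every gene and mouse. The strand setting and annotation release are not given in the sources used here.

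The genotypes were compared with edgeR 4.0.16 under R 4.3.3 (filterByExpr at 10 counts and 15 in total, TMM, robust quasi-likelihood test, Benjamini-Hochberg adjustment over 14714 genes). Log2 CPM used a prior count of 2. Names, positions and exon lengths were looked up in GENCODE M21 (GRCm38), where 49056 of 49315 identifiers were found. For single genes a two-sided exact permutation test was added (smallest possible p 0.00794), and correlations were tested by 100000 permutations. The members and the gene lists were chosen with earlier results of these data known.

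Beside the members, *Ahr* and *Esr1*, the genes named are, per list, those with an unadjusted p under 0.05 (at most 3, or the smallest p where none had one) and, per member, up to 3 genes of most similar pattern. *Aldh3a1* and other genes named for low counts were chosen after their values were seen. The alternatives were DESeq2 1.42.0 (Wald test, and size factors in edgeR), library size alone, limma-voom (limma 3.58.1), 2 other filters, no robust estimation, 1 surrogate variable (sva 3.50.0), the slow-fibre score as covariate, mtDNA genes left out, each mouse left out and, added after the data were seen, the adipocyte score as covariate. The fits were tested on simulated data, except those with the adipocyte score or with 1 mouse left out. There the edgeR fit called 18 of 50 genes with a true log2 fold change of 0.5 and 42 of 50 with 1.0. Of 14313 genes without a difference it called 14. Differences between 0 and 0.5 were not simulated. A mouse is 1 replicate. 3 counts correspond to between 0.0787 and 0.0926 CPM on the TMM-normalized scale, a limit that covers counting error only, since reads carry no molecular identifiers.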

Additional observations from a re-analysis of the deposited data

Results flagged for a closer look

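3 values stood apart from the other 4 mice of their genotype, by the share of the range of log2 CPM taken by the gap to the nearest mouse (the critical value for 5 mice is 0.71). Over the 46 groups examined, about 2.3 such values would be met by chance. *Aldh1a1* in AHRmKO mouse 8 had a share of 0.918, at 126 CPM against 87.3 ± 1.25 CPM (SD, n = 4) in the other AHRmKO mice. *Esr1* in AHRmKO mouse 9 had a share of 0.773, at 678 CPM against 294 ± 26.3 CPM (n = 4). *Mthfd2l* in AHRfl/fl mouse 11 had a share of 0.732, at 5.40 CPM against 4.25 ± 0.139 CPM (n = 4).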

How the results depend on the processing

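No member passed the adjusted threshold under any alternative run, and the lowest adjusted p of a member was 0.554 (*Aldh4a1*). DESeq2 gave no adjusted p to *Aldh1b1*, *Ahr*, *Aldh1a3* and *Cyp1a1*, and *Aldh3a1*, the genes of most similar pattern and those named for low counts were not followed through the alternatives. Of 209 values of the members' log2 fold changes under these alternatives, 197 kept their sign and 12 did not, and all 273 values of 13 other named genes kept their sign, with 270 that had an adjusted p on the same side of the threshold. *Aldh5a1* was -0.00434 with library size alone, -0.0394 with 1 surrogate variable, -0.0283 with the slow-fibre score and -0.00952 with the adipocyte score as covariate, and between -0.0575 and 0.0870 with 1 mouse left out. *Aldh2* was -0.00888 with the slow-fibre score and between -0.0597 and 0.169 with 1 mouse left out, and *Aldh1b1* was -0.0558 with the slow-fibre score. With 1 surrogate variable, *Aldh2* was 0.00808 and *Aldh1b1* was 0.166. The cause was not tested. *Aldh1b1* has no value with at least 10 counts in every mouse, since it was removed by that filter. Members above 0 numbered from 6 to 9. With 1 mouse left out, the median log2 fold change of the members ranged from 0.0607 without AHRmKO mouse 22 to 0.128 without AHRmKO mouse 34. The count of all genes called was 1 in the edgeR fit, 21 by DESeq2 (10858 of 31858 genes given an adjusted p), 5 with no filter, 2 with the slow-fibre score, and between 1 and 6 with 1 mouse left out (6 without AHRmKO mouse 34). Members with an unadjusted p under 0.05 numbered 0 to 1 with 1 mouse left out, the 1 being *Aldh1a1* without AHRmKO mouse 8. No paired analysis was possible because the animal numbers do not repeat between genotypes and litters are not given. *Aldh1b1* had 5 to 36 counts, and the standard error of its log2 fold change was 0.54 in the edgeR fit and 0.31 with the slow-fibre score at the same counts. The second value is smaller than the p of that fit implies and is not read as a gain in precision.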
